A study of Mus musculus with 2 samples.

Results

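Dividing progenitor nuclei of the fetal mouse brain were chosen by the UMIs of 7 genes of mitosis. A nucleus counted as dividing when the raw UMIs of Top2a, Mki67, Kif11, Kif23, Knl1, Cenpf and Aspm summed to at least 5. A UMI is a unique molecular identifier, so each UMI stands for 1 captured RNA. The rule was applied to nuclei in which 500 or more genes were found and no more than 5% of UMIs came from mitochondrially encoded genes. It found 748 nuclei among 13366, of which 379 of 6686 came from the wildtype library and 369 of 6680 from the Cav1 knockout library. Since measured counts chose these nuclei, their levels of the 7 genes describe the choice and are not a result.

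The series measured single-nucleus RNA of whole fetal brain with the 3′ kit of the 10x Genomics Chromium system, with 1 library per genotype. The labels give the wildtype and the Cav1 knockout genotype, the tissue as whole brain and the age as fetal. Strain, sex, exact age, the number of fetuses behind a library and the deleted part of Cav1 are not given in the sources used here. With 1 library per genotype no test between genotypes is possible, so the libraries are called wildtype-labelled and knockout-labelled. All intervals are 95% intervals that cover counting error only.

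Most neurons of the fetal brain descend from radial glia, elongated stem cells whose nuclei move between the ventricular surface and deeper positions as the cell cycle advances. Radial glia of the cortex also give rise to intermediate progenitors, which carry the transcription factors Eomes or Neurog2 and divide to make glutamatergic neurons. In the ganglionic eminences of the ventral forebrain, progenitors with Dlx factors divide to make GABAergic neurons. Genes of DNA replication are switched on by E2F factors as S phase starts, whereas many genes of G2 and mitosis are held down by the DREAM complex and later switched on by MuvB with Mybl2 and Foxm1. The MuvB core reaches DNA through a short element named CHR, and NF-Y binds CCAAT boxes of the same promoters.

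The promoters of the 7 genes are shown because this shared wiring can be read from their letters. Capitals mark the CHR elements TTTGAA or TTTAAA and the CCAAT box, on either strand, so that TTCAAA and ATTGG are the same elements on the other strand. The sequences come from RefSeq's promoter table, built on GRCm38.p6. Each matched GRCm39 at 1 place, whose positions are given, and each is written along its gene's own strand. Top2a, the topoisomerase that untangles sister chromatids, has the window chr11:98914986-98915165 on the minus strand. Mki67, whose protein coats mitotic chromosomes, has chr7:135318079-135318258 on the minus strand. Kif11, the motor that separates spindle poles, has chr19:37364680-37364859 on the plus strand. Kif23, a motor of the central spindle, has chr9:61854052-61854231 on the minus strand. Cenpf, a kinetochore protein, has chr1:189420254-189420433 on the minus strand. Aspm, a spindle pole protein whose loss gives a small brain, has chr1:139382361-139382540 on the plus strand. Of Knl1, the kinetochore scaffold, a site of 30 bases at chr2:118877619-118877648 on the plus strand is shown, downstream of the annotated start.
Top2a: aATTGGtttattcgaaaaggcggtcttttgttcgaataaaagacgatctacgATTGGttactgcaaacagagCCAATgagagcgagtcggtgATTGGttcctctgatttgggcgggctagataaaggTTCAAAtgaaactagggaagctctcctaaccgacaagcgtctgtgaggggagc
Mki67: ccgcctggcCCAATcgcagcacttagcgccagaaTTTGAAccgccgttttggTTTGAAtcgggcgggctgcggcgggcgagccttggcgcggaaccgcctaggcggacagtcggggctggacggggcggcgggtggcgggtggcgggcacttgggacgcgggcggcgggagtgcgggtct
Kif11: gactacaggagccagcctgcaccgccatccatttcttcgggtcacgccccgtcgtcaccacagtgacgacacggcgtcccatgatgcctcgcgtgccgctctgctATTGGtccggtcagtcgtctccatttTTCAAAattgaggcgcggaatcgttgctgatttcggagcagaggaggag
Kif23: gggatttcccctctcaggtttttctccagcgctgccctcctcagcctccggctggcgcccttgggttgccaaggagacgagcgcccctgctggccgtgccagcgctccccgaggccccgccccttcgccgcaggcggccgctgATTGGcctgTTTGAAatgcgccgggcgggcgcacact
Cenpf: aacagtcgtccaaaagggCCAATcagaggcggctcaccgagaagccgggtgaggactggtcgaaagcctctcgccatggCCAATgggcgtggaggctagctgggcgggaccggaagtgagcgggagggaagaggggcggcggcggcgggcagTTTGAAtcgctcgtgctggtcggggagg
Aspm: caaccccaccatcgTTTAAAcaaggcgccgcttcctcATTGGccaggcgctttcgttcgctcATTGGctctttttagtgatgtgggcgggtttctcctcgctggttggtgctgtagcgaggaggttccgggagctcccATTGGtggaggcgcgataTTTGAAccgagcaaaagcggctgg
Knl1: agggcggttagaTTTGAAtacttcagggac

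All 7 promoters held TTTGAA within the full window of 300 bases, which runs from 250 before to 50 after the annotated start. In 6 of the 7 it lay within 50 bases of the start, and Mki67 had its 2 copies farther upstream. CCAAT was in 6 of 7 windows, with Knl1 the exception. Of the G2/M list of 50 genes, 43 had a promoter entry, and TTTGAA was in 29 of their 48 promoters (60.4%), since a gene can have several. Of the S list of 45 genes, 33 had an entry, and TTTGAA was in 6 of 37 promoters (16.2%), beside 17.9% of all 32851 promoters in the table. Within 50 bases of the start the shares were 47.9% for G2/M, 8.11% for S and 4.94% for all promoters. CCAAT was in 72.9% of G2/M and 70.3% of S promoters, above the 37.4% of all promoters. Within 50 bases of the start it was in 60.4% and 45.9%, against 13.6% of all promoters. Any of the E2F-type motifs TTTGGCGC, TTTCCCGC, TTTGCCGC and TTTCGCGC was in 6.25% of G2/M and 37.8% of S promoters, against 2.27% of all. None of the 7 promoters held one. Matches are of letters only, on either strand, and show no binding.

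More UMIs were captured per dividing nucleus than per other nucleus, which the rule partly fixes, since a raw UMI sum favours deep nuclei. Wildtype-labelled dividing nuclei had a median of 2865 UMIs and 1869 genes, and knockout-labelled ones 3251 UMIs and 2056 genes, whereas the other kept nuclei had medians of 2096 and 2309 UMIs. A few nuclei were far deeper, up to 54870 and 97470 UMIs. The 17 and 19 nuclei over 15000 UMIs held 29.7% and 30% of all UMIs of the dividing nuclei. Many results that rest on them are therefore given also without them. Doublet scores were not used to remove nuclei, and the 8% of kept nuclei with the highest Scrublet scores held 19.3% and 18.7% of the dividing nuclei. Among all their deposited barcodes the libraries shared 43, of which 2 and 1 were dividing nuclei.

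Each of the 7 genes was found in a large part of the members of both libraries. Top2a had 1359 UMIs in 355 wildtype-labelled nuclei and 1392 in 349 knockout-labelled nuclei. Kif11 had 500 and 601 UMIs, Knl1 523 and 468, Kif23 451 and 472, Cenpf 448 and 498, Mki67 375 and 363, and Aspm 292 and 302. The sum of the 7 had a median of 9 in both libraries and reached 44 in both. Just inside the threshold, 47 and 47 nuclei had a sum of 5. Just outside, 75 and 59 nuclei had a sum of 4. The plot of nuclei by their sum shows no gap at the threshold, so the rule cuts a continuous range.

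**Figure D1:**
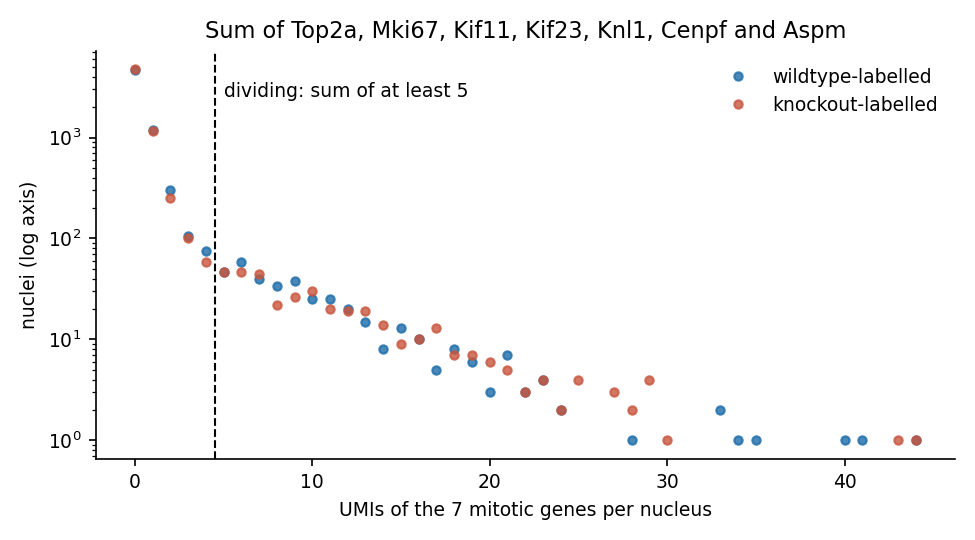
Number of kept nuclei (log axis) at each UMI sum of the 7 mitotic genes, with 1 point per sum and library. The dashed line is the threshold of 5, with 75 and 59 nuclei at 4 and 47 and 47 at 5; no gap separates the 2 sides.

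Markers of radial glia and of neurons were both found in most members. The 27 radial glia genes summed to 8201 and 7625 CPM (counts per 1000000 UMIs of the summed nuclei), in the order wildtype-labelled and knockout-labelled, which is used throughout. In the other kept nuclei the sums were 5811 and 5313 CPM. The 12 neuron genes had 5591 and 6494 CPM in dividing nuclei, below the 8836 and 9738 CPM of the other nuclei. At least 3 radial glia markers were detected in 372 of 379 and 367 of 369 dividing nuclei, but also in 5565 of 6307 and 5607 of 6311 others, so this count sets no members apart. At least 3 neuron markers were detected in 275 and 316 dividing nuclei, but also in 5580 and 5671 others, so this count sets none apart either. At least 3 endothelial markers were detected in 9 and 11 dividing and in 44 and 62 other nuclei. For fibroblast markers the counts were 14 and 16 beside 84 and 114, and for mural markers 5 and 13 beside 29 and 50. For microglia markers they were 9 and 5 beside 20 and 24, and for oligodendrocyte precursor markers 5 and 8 beside 10 and 20. Some members thus carried markers of other classes, so the label of progenitor is not borne out for every nucleus that the rule keeps.

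The libraries held nearly the same share of dividing nuclei. Wildtype-labelled nuclei were dividing in 5.67% of cases (5.13 to 6.25%) and knockout-labelled nuclei in 5.52% (4.99 to 6.1%). The difference was -0.14 percentage points (-0.94 to 0.65). The depth of a nucleus bears on a raw UMI threshold, so nuclei were also thinned to 2000 UMIs, where a sum of at least 3 was asked. Of 3684 and 4011 nuclei deep enough, 7.90% and 7.18% were dividing, with 3002 and 2669 shallower nuclei left out, and the difference was -0.72 points (-1.92 to 0.48). Differentiated neurons, which should lack these transcripts, passed the raw rule in 3.28% and 3.54% of cases, which are 68 and 90 of the members, at median depths of 3304 and 3722 UMIs, and the thinned rule in 1.13% and 1.22%. These neurons were taken as nuclei with at least 5 UMIs of Snhg11, Syt1, Snap25 and Stmn2. How many members passed through free RNA or doublets was not tested.

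Along the sum of the 7 genes, S and G2/M transcripts parted. In the wildtype-labelled library the S list (Mcm helicase subunits, Pcna, Tyms and other replication genes) went from 1211 CPM in nuclei with a sum of 0 to 4040 CPM at 4 and 4009 CPM at 5, and then declined to 1708 CPM at 20 or more. In the knockout-labelled library it had 1120 CPM at 0, 2839 CPM at 4, 4099 CPM at 5 and 1635 CPM at 20 or more. The G2/M list, from which the 7 genes were left out, went from 1686 and 1583 CPM at 0 to 5807 and 5024 CPM at 5. It peaked at 7851 CPM for sums of 15 to 19 in the wildtype-labelled and at 6683 CPM for sums of 10 to 14 in the knockout-labelled library. Nuclei with a sum of 4, just below the threshold, thus had a higher S list than nuclei with a sum of 0 in both libraries, and by less in the knockout-labelled one.

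**Figure D2:**
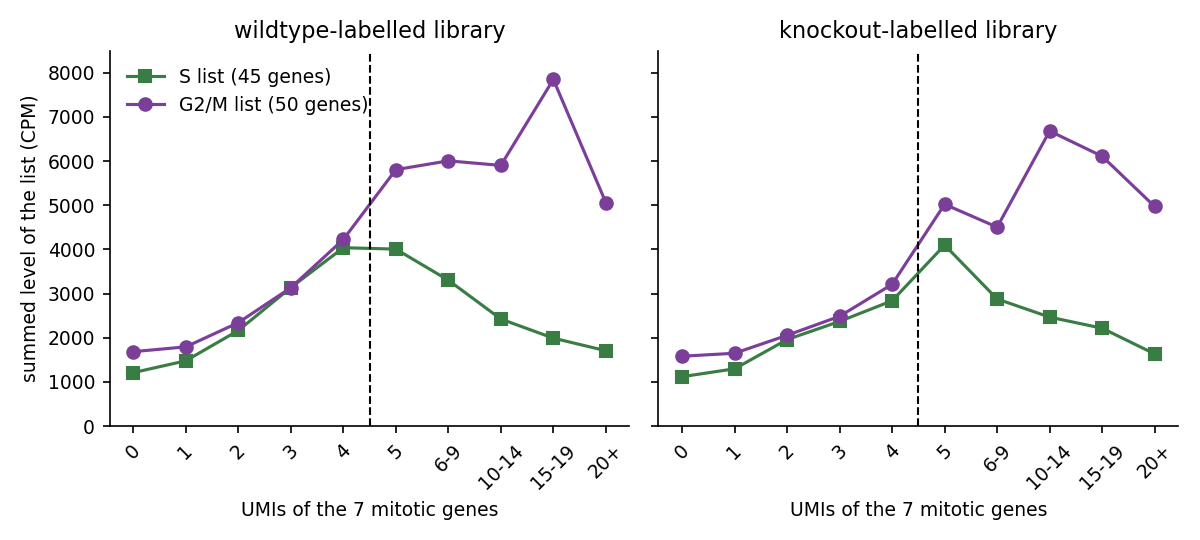
Summed level (CPM) of the S list and of the G2/M list without the 7 genes, by the UMI sum of the 7 genes, with 1 panel per library and the dashed line at the threshold. The S list is highest near the threshold, at 4009 and 4099 CPM for a sum of 5, and lowest among dividing nuclei at 20 or more, where the deepest nuclei are included.

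Among dividing nuclei, UMIs of the S list made up 30.6% (29.9 to 31.4%) and 31.6% (30.9 to 32.3%) of all UMIs of the S and G2/M lists. The difference between the libraries was 0.99 points (-0.04 to 2.02). The S share was 29.8% and 30.8% in the cortical lineage, and 29.3% and 29.2% outside both lineages. In the ganglionic eminence lineage it was 30.8% and 34.1%, a difference of 3.30 points (1.05 to 5.54). The S list there had 2824 and 2566 CPM and the G2/M list 6342 and 4956 CPM. The higher S share of the knockout-labelled nuclei thus came with lower levels of both lists at full depth. Their 7-gene sums had medians of 10 and 9. In the deeper nuclei that met both lineage conditions it was 35.5% and 38.7%, a difference of 3.13 points (0.08 to 6.18). Both differences exceed counting error, taken as if each UMI were independent, but have no replicate behind them. The second rests on 25 and 22 nuclei, of which the deepest held 54870 of 438159 and 97470 of 409120 UMIs. It is given only with nuclei over 15000 UMIs included. Ganglionic eminence nuclei of at most 15000 UMIs had 3294 and 3339 CPM of the S list beside 7898 and 7087 CPM of the G2/M list.

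By lineage, the largest group met neither condition. The cortical lineage (at least 1 UMI of Eomes or Neurog2) held 49 and 64 nuclei, or 12.9% and 17.3% of dividing nuclei. The ganglionic eminence lineage (at least 2 UMIs of Dlx1, Dlx2 and Dlx6os1) held 82 and 83, or 21.6% and 22.5%. Both conditions were met by 25 and 22 nuclei, kept apart here, and neither by 223 and 200, or 58.8% and 54.2%. Nuclei of this last group can hold 1 Dlx UMI, and with 1 such UMI counted as ganglionic eminence the pooled share of unlabelled nuclei went from 56.6% to 49.6%. The differences between the libraries were 4.42 points (-0.91 to 9.75) for cortical, 0.86 (-5.26 to 6.99) for ganglionic eminence, -0.63 (-4.34 to 3.08) for both and -4.64 (-11.9 to 2.65) for neither, so none exceeded counting error. Nuclei that met both conditions were the deepest, with medians of 6834 and 7853.5 UMIs against 2496 to 3494.5 UMIs in the other lineages, and a detected UMI is more likely in a deeper nucleus. At an equal depth of 2000 UMIs the pooled shares moved to 10.7% cortical, 16.4% ganglionic eminence, 1.73% both and 71.2% neither.

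Dividing nuclei made up a larger part of the ganglionic eminence lineage than of the others with a single label. At full depth, 10.9% and 10.7% of kept ganglionic eminence nuclei were dividing, against 5.51% and 8.57% of cortical nuclei and 4.5% and 3.95% of nuclei with neither label. At 2000 UMIs the shares were 15.6% (11.4 to 20.5%) and 15.4% (11.8 to 19.6%) for ganglionic eminence, and 8.10% (5.61 to 11.2%) and 8.57% (5.86 to 12.0%) for cortical. They were 7.08% (6.18 to 8.05%) and 6.09% (5.29 to 6.96%) for neither. The ganglionic eminence interval lay above that of unlabelled nuclei in both libraries. It lay just above the cortical interval in the wildtype-labelled library and overlapped it slightly in the knockout-labelled library. Cortical and unlabelled nuclei had overlapping intervals.

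**Figure D3:**
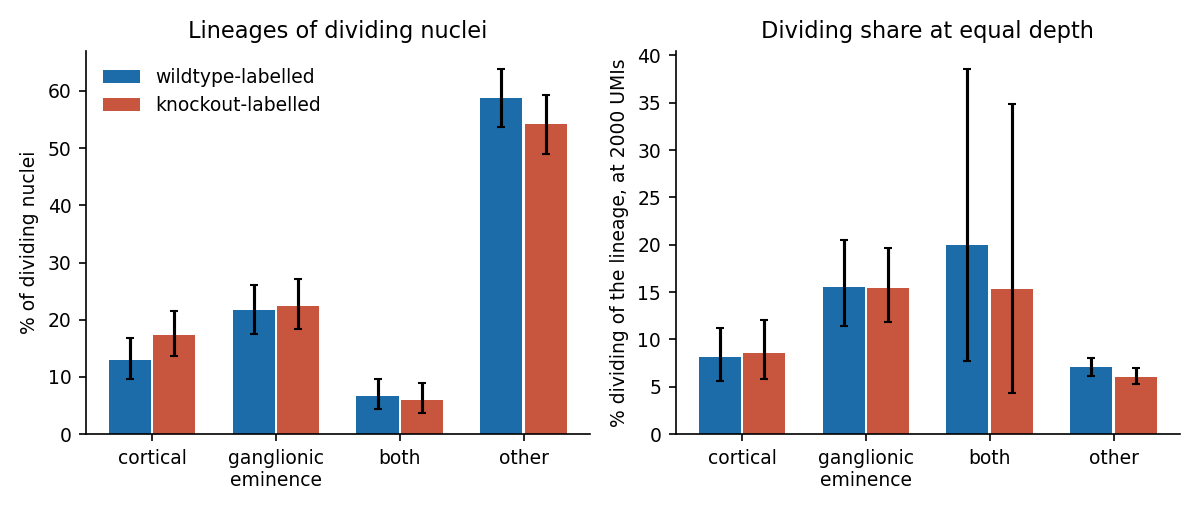
Left, share of dividing nuclei (%) in each lineage; right, share of each lineage's nuclei (%) that were dividing after thinning to 2000 UMIs. Bars are the 2 libraries and error bars the exact binomial intervals; the ganglionic eminence bars at right stand at 15.6% and 15.4%, above 8.10% and 8.57% for cortical nuclei.

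The transcriptome of dividing nuclei was set beside that of non-dividing radial glia, 1194 and 1639 nuclei with none of the 7 transcripts and at least 3 UMIs of Slc1a3, Fabp7, Vim, Hes5 and Sox2. Of 8492 genes with enough UMIs, 246 (2.9%) were at least 2-fold higher in dividing nuclei in both libraries and 7 (0.0824%) at least 2-fold lower. Over all these genes the median log2 ratio was 0.01 and 0.02. Both groups were picked by transcripts that this contrast contains, so the values that follow describe the members and support nothing by themselves. Without nuclei over 15000 UMIs the numbers were 329 (4.1%) higher and 167 (2.08%) lower of 8026.

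Genes of the spindle and of cytokinesis stood highest as a group. All 22 of 22 tested genes of that list were at least 2-fold higher, with median log2 ratios of 3.44 and 3.53. Kif14, a motor that works at the midbody and recruits citron kinase, had 149 and 171 UMIs in dividing nuclei and 2 and 7 in the more numerous radial glia, or log2 ratios of 7.08 and 5.87. Kif2c, which depolymerises microtubules at centromeres, had log2 ratios of 5.28 and 5.87, and Anln, an anillin of the contractile ring, 4.47 and 4.49. Prc1, which bundles antiparallel microtubules of the central spindle, had 470 and 510 UMIs and log2 ratios of 3.12 and 3.01. The mildest was Ckap5, a microtubule polymerase of all cells, at 1.31 and 1.22.

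Kinetochore and checkpoint genes followed, with 17 of 21 at least 2-fold higher and medians of 2.52 and 2.97. Ttk, the checkpoint kinase also known as Mps1, had 208 and 245 UMIs and log2 ratios of 4.65 and 4.95. Bub1, another checkpoint kinase, stood at 4.0 and 4.35, Cenpe, a kinetochore motor, at 4.04 and 4.10, and Cenpa, the centromeric histone H3 variant, at 3.29 and 3.91. Zwint, which links Knl1 to the rod complex, was the exception, at 0.00 and -0.11 with 182 and 200 UMIs. Within the condensin and cohesin list, the condensin subunits and the shugoshin Sgo1 were apart from cohesin. Smc2, Smc4, Ncapd2, Ncapd3, Ncapg, Ncapg2 and Sgo1 made up the 7 of 16 genes past 2-fold, for example Ncapg at 3.33 and 3.62. The cohesin ring genes Smc1a, at 0.40 and 0.30, and Smc3, at 0.15 and 0.18, and the cohesin release factor Wapl, at 0.61 and 0.71, were closer to the level of radial glia.

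Of the G2/M list, 32 of 40 tested genes were past 2-fold, with medians of 3.23 and 3.15, whereas the S list had 10 of 27 and medians of 0.82 and 1.03. The 10 S genes included Brip1, a helicase partner of Brca1, at 3.68 and 3.79, Clspn, the Claspin of the replication checkpoint, at 2.39 and 2.72, and Atad2, a chromatin ATPase of S phase, at 2.36 and 3.02. Nasp, the histone chaperone with the most UMIs of the list at 725 and 837, was at 0.63 and 0.71, and Pola1, the catalytic subunit of the polymerase that primes DNA synthesis, was at 0.84 and 1.39. The S helicase gene Mcm7 stood at 0.26 and 0.37 and the sliding clamp gene Pcna at 0.12 and 0.28. Of the DNA repair list, 11 of 17 genes were past 2-fold, led by Brip1 and by Brca1 at 3.36 and 3.17. Polq, the polymerase of end joining by microhomology, was at 2.26 and 2.17.

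Among regulators, the mitotic cyclin and kinase genes differed most from radial glia. Ccnb1, cyclin B1, was at log2 ratios of 3.17 and 3.24, Cdk1 at 2.31 and 2.03, and Wee1, the kinase that restrains Cdk1, at 2.58 and 3.07. The G1 kinase gene Cdk6 was at 1.17 and 1.32 and Ccnd2, a cyclin of G1, at 0.73 and 0.97. Cdkn1c, an inhibitor linked to cell cycle exit, was at -0.35 and -0.73. In the list of E2F and DREAM genes 5 of 13 were past 2-fold, namely E2f3, E2f7, Rbl1, Lin9 and Foxm1. Foxm1, the forkhead factor of late G2/M genes, had 114 and 134 UMIs and log2 ratios of 3.69 and 4.32. E2f7, a repressor of the E2F family, stood at 2.90 and 2.50. Rb1 and Rbl2, pocket proteins of resting cells, were near the radial glia level, at 0.21 and 0.25 and at -0.01 and -0.01.

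Genes whose mutation causes primary microcephaly in people, a small brain at birth, were at least 2-fold higher in 13 of 25 cases, beside 2.9% of all genes tested. Stil and Cenpj, which build centrioles, were at 4.34 and 4.76 and at 1.49 and 1.77. Cit, the citron kinase of the midbody, was at 3.38 and 2.90, and Nde1, a dynein regulator, at 2.74 and 2.37. Cdk5rap2, of the centrosome, had 385 and 407 UMIs and ratios of 1.35 and 1.19. Others were near the radial glia level, such as Wdfy3, a scaffold of autophagy with 563 and 666 UMIs, at 0.03 and 0.07. This list shares Kif14, Cenpe, Cit, Ncapd2, Ncapd3, Ncaph and Cdk6 with the lists above.

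The genes farthest above radial glia by the bound of their interval were, beside the 7, Kif14, Depdc1b, Depdc1a, Neil3, Cdca2, Esco2, Kif2c and Gm3550. Neil3, a DNA glycosylase for lesions at replication forks, had 286 and 325 UMIs and log2 ratios of 5.21 and 5.69. Esco2, which acetylates cohesin during S phase, stood at 5.40 and 4.89, and Cdca2, a phosphatase subunit of chromosomes, at 4.88 and 5.28. Gm3550 lies within Cdc25c on the opposite strand, so its UMIs cannot be told apart from those of Cdc25c with certainty. The lowest genes were Fabp7, Ranbp3l, Trpm3, D130079A08Rik, Cntnap5a, Lrrtm4, Kcnmb2, Scn9a, Rn18s and Sntg1. Fabp7, at -1.10 and -1.27, was among the genes that chose the radial glia nuclei, which favours a lower ratio. In all other kept nuclei it had 490 and 515 CPM, beside 419 and 355 CPM in dividing nuclei.

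Identity genes differed less than cell cycle genes. Of all genes tested, 2.9% were at least 2-fold higher and 0.0824% at least 2-fold lower. Of the radial glia list, 3 of 25 were past 2-fold higher, namely Gli3, the Hedgehog pathway repressor, at 1.31 and 1.55, the patterning factor Pax6 at 1.10 and 1.26, and the Notch target Hes1 at 1.03 and 1.07. Fabp7, which helped to choose the radial glia nuclei, was the 1 of 25 past 2-fold lower. Notch1 was at 0.96 and 0.93 and Notch2 at 0.89 and 1.12. In the Notch list 1 of 16 genes, Hes1, was past 2-fold. Among intermediate progenitor genes 1 of 14, Tfap2c, was past 2-fold higher. None of 12 neuron genes was past 2-fold, and all were lower, with ratios from -0.23 for Tubb3 to -0.87 for Syt1 in the wildtype-labelled library. Without nuclei over 15000 UMIs, 4 of 25 radial glia genes were past 2-fold higher and 0 past 2-fold lower. Of the Notch list 3 of 15 were then past 2-fold higher, and of the intermediate progenitor list 2 of 13, beside 4.1% of all genes tested. In the same nuclei, 3 of the 12 neuron genes were at least 2-fold lower in both libraries, beside 2.08% of all genes tested.

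The study asks about metabolic programming of the fetal brain, and metabolic genes were mostly near the radial glia level. Of the glycolysis list 0 of 15 were past 2-fold, and the medians were -0.14 and -0.44. Pkm, pyruvate kinase, had 194 and 170 UMIs and ratios of -0.20 and -0.53. Of the nucleotide synthesis list 3 of 14 were past 2-fold, namely Tyms, thymidylate synthase, at 1.73 and 1.61, the ribonucleotide reductase subunit Rrm1 at 1.05 and 1.35, and the mitochondrial folate enzyme Mthfd1l at 1.10 and 1.09. Of the cholesterol list 1 of 15 was, and the medians were -0.04 and 0.10. These counts stand beside 2.9% of all genes tested that were at least 2-fold higher.

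**Figure D4:**
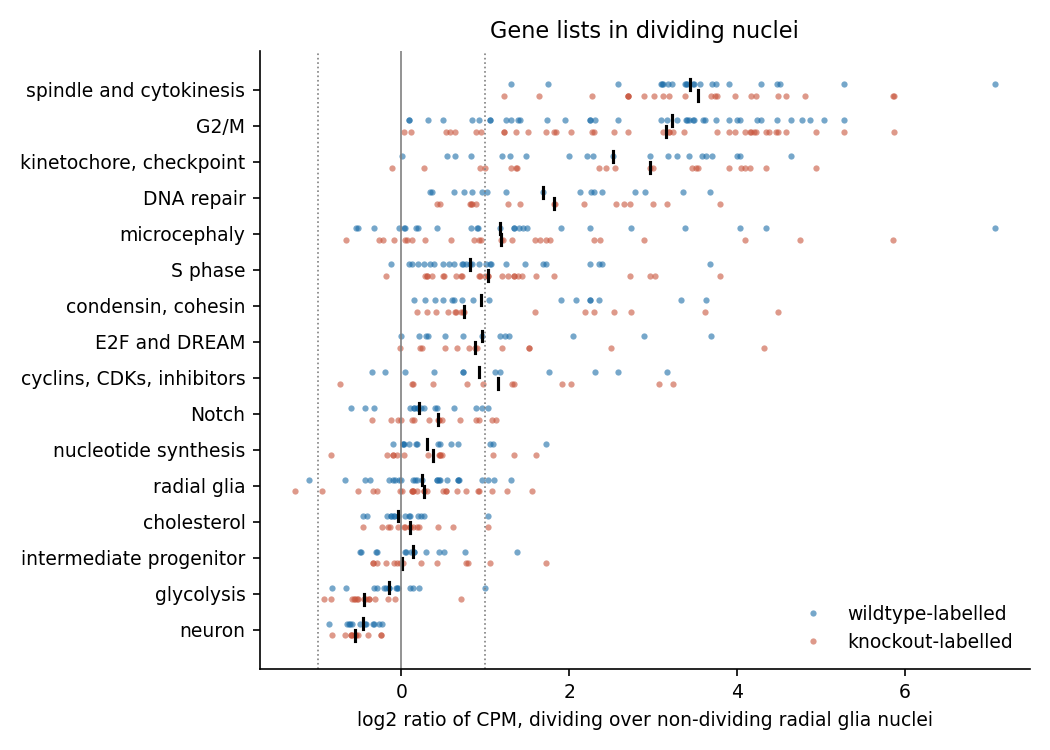
Log2 ratio of CPM in dividing over non-dividing radial glia nuclei for each tested gene of 16 lists (points), with the median of each list and library as a black bar; dotted lines mark 2-fold. The spindle list lies farthest right, with medians of 3.44 and 3.53, and the neuron list lies left of 0, with medians of -0.46 and -0.55; the 7 genes of the rule are left out.

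Dividing nuclei of each of the 3 lineages were set beside nuclei of their own lineage without any UMI of the rule's genes. These were 595 and 501 cortical, 465 and 494 ganglionic eminence and 3530 and 3706 unlabelled nuclei. Nuclei that held such UMIs but fell below the threshold were left out. The dividing nuclei had higher cell cycle lists. Since mitotic transcripts chose both groups, these higher lists describe the choice and support nothing by themselves. The summed G2/M list had log2 ratios of 2.01 and 1.95 in the cortical, 1.89 and 1.66 in the ganglionic eminence and 2.11 and 2.06 in the unlabelled nuclei. The spindle list stood at 3.14 and 2.96, 3.00 and 2.58, and 3.28 and 3.13 in the same order, and the DNA repair list at 1.89 and 1.72, 1.69 and 1.43, and 2.11 and 2.05. These 3 lists were lowest in ganglionic eminence nuclei, but without nuclei over 15000 UMIs the G2/M list was not, at 2.04 and 2.14 in cortical, 2.21 and 2.17 in ganglionic eminence and 2.16 and 2.15 in unlabelled nuclei. In unlabelled nuclei the radial glia list was higher by 0.87 and 0.84 and the Notch list by 0.85 and 0.80, while the neuron list was lower, at -1.27 and -1.05. In cortical nuclei the same 3 lists stood at 0.46 and 0.37, 0.54 and 0.35, and -0.65 and -0.65. In ganglionic eminence nuclei they stood at 0.63 and 0.38, 0.35 and 0.27, and -0.52 and -0.22.

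The dividing nuclei of each lineage carried genes beyond those that assigned them. Each of the 3 was set beside the other 2, and nuclei that met both conditions were left out. Dividing ganglionic eminence nuclei led with Gm45680, Nrxn3, Dlx6, B020031H02Rik, Gm38505, Sp9, Gad2, Stk33, Gm14204 and Dlx1as. Gad2, which makes the transmitter GABA, had 143 of 212 wildtype-labelled UMIs and 179 of 244 knockout-labelled UMIs of the compared lineages there, or 401 and 378 CPM against 72.3 and 54.4 CPM. Sp9, a transcription factor of GABAergic neurons, had 95.5 and 82.4 CPM there against 6.28 and 9.21 CPM, and Nrxn3, a synaptic adhesion gene, 7358 and 7416 CPM against 1146 and 826 CPM. Dlx6 and Dlx1as lie at the Dlx genes used for the assignment, and Dlx6 overlaps Dlx6os1 on the opposite strand.

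Dividing cortical nuclei led with Kif26b, Dcc, Lzts1, Plcb1, Rbfox3, Clvs1, Cdh8, E130114P18Rik, Nrn1 and Nrg1, the last being 1 of 2 annotated genes of that symbol. Dcc, the netrin receptor of growing axons, had 3246 and 3811 CPM there against 1266 and 1730 CPM in the other lineages. Rbfox3, the neuronal splicing factor known as NeuN, had 293 and 243 CPM against 126 and 113 CPM, and Lzts1, a factor of delaminating neuron precursors, 120 and 113 CPM against 37.2 and 42.1 CPM. Genes of postmitotic neurons were thus among the leaders of nuclei that carried mitotic transcripts. The part of doublets and free RNA in this was not tested.

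Dividing nuclei with neither label led with Aldh1l1, Wdr17, 8030451A03Rik, Tnfaip8, Creb5, Plce1, Col22a1, Slc1a3, Bnc2 and Gulp1. Aldh1l1, a folate enzyme of astrocytes and radial glia, had 34 and 42 UMIs there against 1 and 7 in the other lineages. Slc1a3, the glutamate transporter of radial glia, had 430 and 404 CPM against 181 and 174 CPM. The summed radial glia list was also highest in these nuclei, at 10383 and 9389 CPM, followed by 9163 and 8657 CPM in cortical and 5862 and 5121 CPM in ganglionic eminence nuclei.

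Between the libraries, the cell cycle genes of dividing nuclei were close, with summed S and G2/M lists slightly lower in the knockout-labelled library. The rule set the same minimum sum of mitotic UMIs in both libraries. Of 7493 genes with at least 100 UMIs over both sums, 193 (2.58%) were past 1.5-fold toward the knockout-labelled library and 163 (2.18%) past 1.5-fold toward the wildtype-labelled one. The median log2 ratio was -0.02 and the 5th and 95th percentiles -0.45 and 0.46. No gene was past 1.5-fold among 32 of the S list, 47 of the G2/M list, 24 of the kinetochore list, 25 of the spindle list, 14 cyclins, kinases and inhibitors, 14 E2F and DREAM genes and 21 repair genes. Their medians lay between -0.21 and -0.09. Summed, the G2/M list was at -0.16 (-0.19 to -0.12) and the S list at -0.09 (-0.15 to -0.03), both beyond counting error. In the condensin and cohesin list, 1 of 19 was past it, Sgo2a with 101 and 78 UMIs at -0.62 (-1.07 to -0.18). Without nuclei over 15000 UMIs, 140 genes (2.35%) were higher and 68 (1.14%) lower of 5958. Sgo2a was then at -0.53, inside 1.5-fold, while 1 of 28 S genes, Ubr7, and 1 of 13 cyclins, kinases and inhibitors, Cdc25a, were just past it, both at -0.59.

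At the Cav1 locus, Gm15581 was the gene farthest apart of all ranked genes, whereas Cav1 was not apart beyond counting error. Cav1 itself, at chr6:17306140-17341451, had 15 UMIs in 13 wildtype-labelled nuclei and 16 UMIs in 16 knockout-labelled nuclei, a log2 ratio of -0.15 (-1.27 to 0.96). Since the deleted part of Cav1 is not given and 3′ counting reads near the end of a transcript, this count does not check the label. Cav2, the neighbouring caveolin at chr6:17281026-17289877, had 4 UMIs in 4 nuclei and 68 UMIs in 48 nuclei, a log2 ratio of 3.84 (2.42 to 5.76), with too few UMIs to be ranked. Gm15581, a long noncoding RNA at chr6:17206822-17385603 that spans both genes on the opposite strand, had 4 UMIs in 4 nuclei and 188 UMIs in 89 nuclei, a log2 ratio of 5.31 (3.93 to 7.20). Gm15581 was also apart in the kept nuclei that were not dividing, at 3.75 and 92.5 CPM, beside 2.29 and 90.5 CPM in dividing nuclei. Whether the counting used the strand is not given in the sources used here, so reads of overlapping genes at this locus may be exchanged.

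A pair of genes elsewhere were apart in all lineages. Btaf1, an ATPase that removes TBP from promoters, at chr19:36903472-36991455, had 206 UMIs in 130 nuclei and 580 UMIs in 259 nuclei, a log2 ratio of 1.25 (1.01 to 1.48). Rnf121, a RING-finger protein gene at chr7:101668344-101714690, had 307 UMIs in 150 nuclei and 134 UMIs in 92 nuclei, a log2 ratio of -1.44 (-1.75 to -1.15). Without nuclei over 15000 UMIs these ratios were 1.29 and -1.56. Among the lineages they ranged from 0.99 to 1.40 for Btaf1 and from -1.68 to -1.37 for Rnf121. The other kept nuclei of the same libraries were apart too, with 102 and 172 CPM of Btaf1 and 168 and 53.2 CPM of Rnf121.

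Genes of the midbrain and hindbrain, summed as a list, were higher in the knockout-labelled dividing nuclei, though not every gene of the list was. Pax3, a factor of the dorsal neural tube, had 21 UMIs in 9 nuclei and 104 UMIs in 32 nuclei, a log2 ratio of 2.06 (1.37 to 2.81). Cnpy1, a gene of the midbrain-hindbrain boundary, had 0 and 46 UMIs. Its knockout-labelled level was 12.9 times a floor of 3 counts over the wildtype-labelled sum, without counting error. The 13 Hox genes measured, which mark the hindbrain and spinal cord, had 0 and 41 UMIs together. That was 11.5 times the same floor, and 6.77 times without nuclei over 15000 UMIs. With counting error, the lower bound of the log2 ratio was 3.16 with and 2.35 without those nuclei. The whole list of 23 midbrain and hindbrain genes had 277 and 365 CPM, a log2 ratio of 0.39 (0.23 to 0.56). Of its 4 genes with at least 100 UMIs, 1, Pax3, was at least 1.5-fold higher, beside 2.58% of all genes. These 4 had a median log2 ratio of 0.16 and a lowest of -0.12. The 18 pallial genes had 1372 and 1088 CPM, or -0.33 (-0.42 to -0.25). The same lists differed in the same direction in the kept nuclei that were not dividing, with Hox genes at 11 and 497 UMIs, midbrain and hindbrain genes at 0.42 and pallial genes at -0.41. By lineage, the midbrain and hindbrain list had 304 and 435 CPM in unlabelled, 244 and 273 CPM in ganglionic eminence and 346 and 332 CPM in cortical dividing nuclei. In the same order Pax3 had 22.8 and 57.2, 0 and 31.7, and 0 and 89.0 CPM. The Hox genes had 0 and 18.7, 0 and 8.45, and 0 and 38.6 CPM, with at least 2 UMIs in only 2 knockout-labelled cortical nuclei. Whether all nuclei of the cortical label come from cortex was not tested. Levels of regional markers thus differed with the genotype label, and their part in the other differences was not tested.

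The other genes highest in the knockout-labelled library by the bound of their interval were Ndst4, Htr2c, Cdc20b, 4930438E09Rik, Cdh18, Cntnap5a and Ebf2. Ebf2, a factor of neuronal differentiation, had 70 and 221 UMIs, and 4930438E09Rik, which lies within it on the opposite strand, 36 and 148. Cdh18, a cadherin of neurons, had 93 UMIs in 30 nuclei and 294 in 56. Of the 116 knockout-labelled UMIs of Cdc20b, 75.9% came from 1 nucleus, so this difference belongs to that nucleus. Htr2c, a serotonin receptor of choroid plexus and neurons, had 34 and 168 UMIs at a log2 ratio of 2.06, and 1.38 without nuclei over 15000 UMIs. For 4930438E09Rik the ratio was 1.79 with and 2.65 without them.

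The lowest were, after Rnf121, Hbb-bt, Rpl29, Hbb-bs, Cpq, Rps10, Nwd2, Nes and Cped1. Nes, nestin, the intermediate filament of neural progenitors, had 104 UMIs in 76 nuclei and 53 UMIs in 46 nuclei, a log2 ratio of -1.22 (-1.73 to -0.73) that was -0.92 without nuclei over 15000 UMIs. Cpq, a secreted peptidase, had 98 UMIs in 74 nuclei and 42 in 31, at -1.47 (-2.03 to -0.93). The beta-globin gene Hbb-bs had 887 and 491 UMIs at -1.10, and -0.49 without the deep nuclei. The ribosomal protein gene Rpl29 had 144 and 66 UMIs and was at -1.37 with and -0.32 without them, and Hbb-bt at -1.32 and -0.60. A single wildtype-labelled nucleus held 19.8% of the Hbb-bs and 27.8% of the Rpl29 UMIs of its library.

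**Figure D5:**
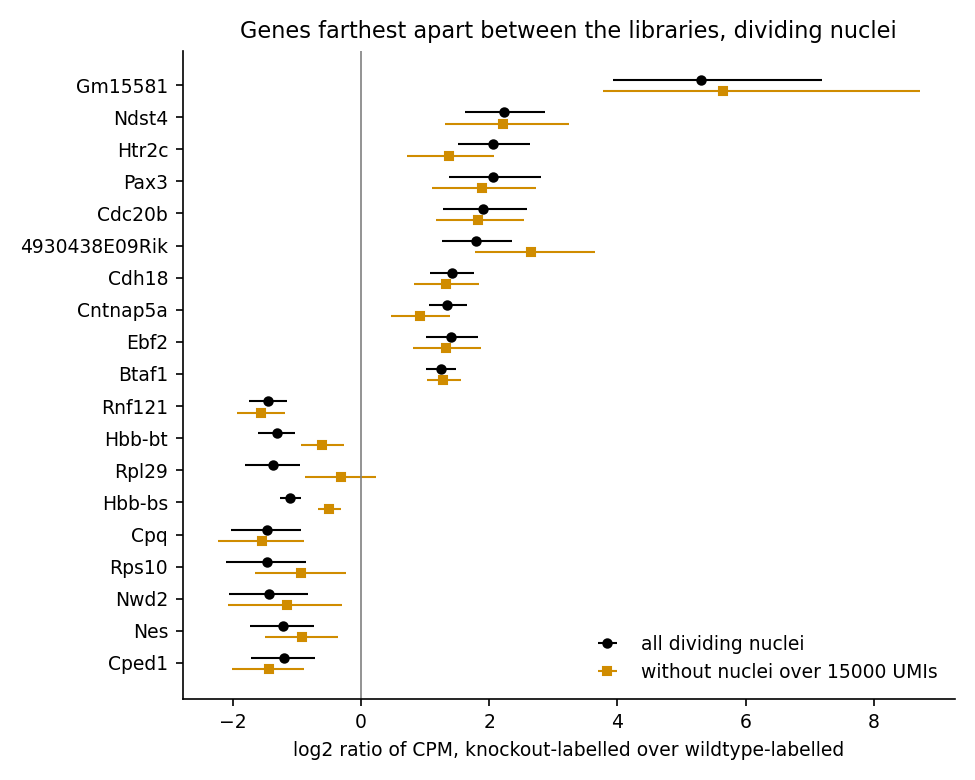
Log2 ratio of CPM in dividing nuclei, knockout-labelled over wildtype-labelled, for the 10 highest and 9 of the lowest genes, with exact intervals for counting error. Black circles are all dividing nuclei and orange squares those of at most 15000 UMIs; Btaf1 (1.25 and 1.29) and Rnf121 (-1.44 and -1.56) keep their values, while Rpl29 moves from -1.37 to -0.32.

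Between the libraries, few metabolic genes were past 1.5-fold in dividing nuclei, though their shares in the cholesterol and glycolysis lists were above those of all genes. Of 13 cholesterol genes tested 2 were at least 1.5-fold higher, beside 2.58% of all genes, among them the sterol enzyme gene Msmo1, with 97 and 181 UMIs at 0.65 (0.29 to 1.02). The list as a whole had 1241 and 1398 CPM, a log2 ratio of 0.17 (0.09 to 0.25), and stood at 0.18 in the other kept nuclei. Of 13 glycolysis genes, 1 was higher and 2 were lower, beside 2.58% and 2.18% of all genes. Among them, Pfkp, a phosphofructokinase, was higher, with 153 and 284 UMIs at 0.64. Gapdh, with 135 and 103 UMIs at -0.64, and the hexokinase gene Hk1, with 65 and 43 at -0.84, were lower. Without nuclei over 15000 UMIs, Pfkp was at 0.44, Gapdh at -0.33 and Hk1 at -1.31, the last with too few UMIs to be counted. Then 0 of 9 glycolysis genes were past 1.5-fold, and of 12 cholesterol genes 1 was higher, Msmo1 at 0.81, and 1 lower. Of 13 nucleotide synthesis genes 0 were past 1.5-fold.

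Vascular genes were higher in the knockout-labelled dividing nuclei as a whole, though not in each lineage. Flt1, a VEGF receptor of endothelial cells, had 60 UMIs in 14 dividing nuclei and 184 UMIs in 15, a log2 ratio of 1.37 (0.94 to 1.81), and 38.6% of the knockout-labelled UMIs came from 1 nucleus. Without nuclei over 15000 UMIs the ratio was 1.94. Mfsd2a, the lipid transporter of brain endothelium that is also a microcephaly gene, had 31 and 75 UMIs at 1.03 (0.41 to 1.68), and 1.63 without those nuclei. The 9 endothelial markers together had 168 and 271 CPM, a log2 ratio of 0.69 that was 1.23 without those nuclei, and were at 113 and 167 CPM in the other kept nuclei. In unlabelled dividing nuclei they had 182 and 533 CPM, but in the cortical lineage 206 and 20.8 CPM and in the ganglionic eminence lineage 89.8 and 35.9 CPM. Without nuclei over 15000 UMIs the cortical values were 31.3 and 17.6 CPM, over 48 of 49 and 62 of 64 nuclei. Most of the wildtype-labelled cortical level thus lay in the deep nucleus left out. In summed nuclei, more nuclei of a class and more RNA per nucleus of that class cannot be told apart.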

How the data were processed

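The deposited matrices hold raw UMI counts for each gene in each barcode. Per the file headers, the authors made them using Cell Ranger 6.1.1. The submitters' processing notes name Cell Ranger 3.0.1, STAR and GRCm39 instead, and this difference could not be settled. Whether intronic reads or the strand were counted is not given in the sources used here. Library totals were 19048835 UMIs over 9763 barcodes and 22504908 UMIs over 10811 barcodes, and no other column of values was left unused.

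Nuclei were filtered, summed per library and scaled to CPM with Python 3.11.15, numpy 2.4.6, scipy 1.17.1 and pandas 2.3.3. Shares carry exact Clopper-Pearson intervals, ratios exact conditional intervals and differences of shares Newcombe intervals built from exact ones, all for counting error only. Genes needed 100 UMIs, over both libraries for the genotypes, or over both groups within each library for the radial glia contrast. Scrublet scores came from scanpy 1.11.5, whose automatic threshold marked 0 nuclei, so doublets were kept. The ratio and its interval were tested on simulated sums of independent counts, which leave out the weight of single deep nuclei. Gene positions are from GENCODE M39 on GRCm39.

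The members and lists were chosen with earlier results of these data known. The text names the 7 genes, list members with the most UMIs or past the fold used, and the 10 (15 for genes high in dividing nuclei) farthest genes of each contrast, ranked by the interval bound nearest to 0. Other thresholds, filters, depths, scalings and single lineages were tried. The limit of 15000 UMIs was added after seeing the data. Some genes that this rule names are not reported here.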

Additional observations from a re-analysis of the deposited data

How the results depend on the processing

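No paired analysis was possible because each genotype has 1 library, and for the same reason no replicate could be left out. Of 172 summary values under other settings, 116 stayed within counting error or within 1.5 times the count, 56 moved and 0 reversed. The share of dividing nuclei, wildtype-labelled and knockout-labelled, was 8.36% and 7.92% with a sum of at least 3, 3.50% and 3.47% with at least 8, 3.97% and 3.51% from 200 genes, 7.05% and 7.01% from 1000 genes, 6.62% and 6.15% with a mitochondrial limit of 1%, 4.97% and 4.84% without the highest 8% of doublet scores, and 7.90% and 7.18% at 2000 UMIs. The S share was 34.6% and 34.7% with a sum of at least 3, 27.4% and 27.9% with at least 8, 28.6% and 29.5% without the top gene of each list, and 29.5% and 30.1% without nuclei over 15000 UMIs. It was 29.9% in the wildtype-labelled library without the highest doublet scores. Pooled cortical, ganglionic eminence, both and unlabelled shares were 10.7%, 16.4%, 1.73% and 71.2% at 2000 UMIs, and 5.48%, 26.1%, 2.27% and 66.2% with 2 UMIs of Eomes and Neurog2. With 1 Dlx UMI the last 3 were 29.0%, 8.56% and 49.6%, and without nuclei over 15000 UMIs the share of both was 4.49%.

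Genes at least 2-fold lower than radial glia numbered 12 with a sum of at least 8, 14 from 200 genes, 20 without the highest doublet scores, 167 without nuclei over 15000 UMIs, 27 against radial glia with a sum of at least 5, 22 from 50 UMIs and 3 from 200 UMIs per gene. Those 2-fold higher numbered 117 from 200 UMIs per gene. Genes at least 1.5-fold higher and lower in the knockout-labelled library numbered 448 and 370 from 50 UMIs, 90 and 73 from 200 UMIs, 37 and 31 in the cortical and 90 and 52 in the ganglionic eminence lineage alone, where fewer genes were tested. The higher genes were 118 in nuclei of both lineages. The lower genes were 104 with a sum of at least 8, 68 without nuclei over 15000 UMIs, 72 in unlabelled nuclei and 101 with lineages weighted equally. Of 243 values of named genes 184 were alike, 55 moved and 4 reversed. The reversed ones were Nwd2 at 2.63 in the cortical and 1.18 in the ganglionic eminence lineage, and Cdc20b at -1.60 and Ebf2 at -0.17 in the ganglionic eminence lineage. The cause was not tested.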
